A study of Homo sapiens with 6 samples.

Results

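A set of 8 genes of the circadian clock were examined for DNA G-quadruplex (G4) peaks, namely the repressor genes CIPC, CRY1, CRY2, PER1 and PER2, the activator genes CLOCK and BMAL1, and NR1D1, which encodes the nuclear receptor REV-ERB alpha. The 8 genes were chosen by name as parts of the clock, with the peak calls and −log10 q of these lists already known, CIPC standing out in Ctrl and CRY2 in HD. They were located in the RefSeq table of GRCh38.p14, the assembly also called hg38, which holds 19970 protein-coding genes on the autosomes and X. Every peak that touched the gene or the 1 kb beyond either end was assigned to it. G4s are stacked structures that guanine-rich strands can fold into, and they were recovered from formaldehyde-fixed chromatin with BG4, an antibody directed at G4s, followed by sequencing (ChIP-seq). The cells were U2OS, a human osteosarcoma line, either treated with 1,6-hexanediol (HD), an alcohol that dissolves many biomolecular condensates, or untreated (Ctrl), and each condition had 2 libraries from BG4 chromatin and 1 from input. No source used here gives the dose or duration of hexanediol, and nothing in the labels places the cultures at a given time of the daily cycle. The lists used here give positions and peak statistics and no RNA, so neither clock gene expression nor markers of the cell type could be checked.

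In the clock, the CLOCK and BMAL1 proteins pair and bind DNA at E-box sequences, where they activate the PER and CRY genes. The PER and CRY proteins accumulate, return to the nucleus and inhibit CLOCK and BMAL1, and CIPC is a further inhibitor that binds CLOCK. A second loop runs through REV-ERB alpha, whose gene is activated by CLOCK and BMAL1 and whose product represses BMAL1 in competition with the activating ROR receptors. U2OS cells have a working clock and are widely used to study it.

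The promoter sequences on which the peaks fell are shown to let the G-rich stretches be seen beside the values. Each is the RefSeq window of GRCh38.p14 that spans 250 bases before and 50 bases from an annotated gene start, written along the gene. Capitals mark runs of at least 3 G or at least 3 C, a run of C being a run of G on the other strand. The CIPC window (chr14:77098008-77098307, plus strand) held a Ctrl summit and no HD peak. The CRY2 window (chr11:45847225-45847524, plus strand) held an HD summit and no Ctrl peak, and the CLOCK window (chr4:55546860-55547159, minus strand) a Ctrl summit and no HD peak. The BMAL1 window (chr11:13277540-13277839, plus strand) held a summit of each list. The NR1D1 window (chr17:40100540-40100839, minus strand) touched a peak of each list, and the PER1 window (chr17:8152355-8152654, minus strand) is shown because it was G-rich and touched no peak.
CIPC: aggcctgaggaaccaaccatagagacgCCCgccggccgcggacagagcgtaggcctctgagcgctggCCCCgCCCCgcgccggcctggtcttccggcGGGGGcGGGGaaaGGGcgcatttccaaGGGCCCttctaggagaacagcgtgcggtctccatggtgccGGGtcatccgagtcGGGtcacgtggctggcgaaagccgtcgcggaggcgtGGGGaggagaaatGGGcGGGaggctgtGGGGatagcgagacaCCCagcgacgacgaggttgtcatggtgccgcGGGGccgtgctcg
CRY2: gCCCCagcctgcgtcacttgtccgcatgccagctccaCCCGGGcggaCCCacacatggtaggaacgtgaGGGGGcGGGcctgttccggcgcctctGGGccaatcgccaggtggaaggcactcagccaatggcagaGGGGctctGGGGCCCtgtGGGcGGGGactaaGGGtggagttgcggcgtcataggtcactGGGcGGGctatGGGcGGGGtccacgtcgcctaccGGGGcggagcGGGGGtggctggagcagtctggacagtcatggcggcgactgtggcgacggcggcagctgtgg
CLOCK: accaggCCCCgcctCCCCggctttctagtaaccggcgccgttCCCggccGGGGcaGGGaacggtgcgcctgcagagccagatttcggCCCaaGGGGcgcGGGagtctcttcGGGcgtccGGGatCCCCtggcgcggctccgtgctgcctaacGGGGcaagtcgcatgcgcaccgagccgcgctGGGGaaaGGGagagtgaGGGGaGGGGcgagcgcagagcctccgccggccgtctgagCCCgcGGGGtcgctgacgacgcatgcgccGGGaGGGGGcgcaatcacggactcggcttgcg
BMAL1: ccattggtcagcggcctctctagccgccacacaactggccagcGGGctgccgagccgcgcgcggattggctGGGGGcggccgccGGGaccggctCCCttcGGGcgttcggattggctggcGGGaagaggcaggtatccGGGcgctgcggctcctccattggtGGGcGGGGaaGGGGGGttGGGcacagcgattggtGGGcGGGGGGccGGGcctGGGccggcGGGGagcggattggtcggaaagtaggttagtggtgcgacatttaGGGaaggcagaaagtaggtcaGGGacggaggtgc
NR1D1: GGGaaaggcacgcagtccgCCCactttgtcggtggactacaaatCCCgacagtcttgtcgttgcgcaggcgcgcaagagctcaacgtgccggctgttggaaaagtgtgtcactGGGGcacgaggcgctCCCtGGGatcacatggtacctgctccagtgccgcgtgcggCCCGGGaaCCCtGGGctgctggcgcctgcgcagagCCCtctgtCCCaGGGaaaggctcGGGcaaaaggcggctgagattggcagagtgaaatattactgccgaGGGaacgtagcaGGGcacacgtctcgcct
PER1: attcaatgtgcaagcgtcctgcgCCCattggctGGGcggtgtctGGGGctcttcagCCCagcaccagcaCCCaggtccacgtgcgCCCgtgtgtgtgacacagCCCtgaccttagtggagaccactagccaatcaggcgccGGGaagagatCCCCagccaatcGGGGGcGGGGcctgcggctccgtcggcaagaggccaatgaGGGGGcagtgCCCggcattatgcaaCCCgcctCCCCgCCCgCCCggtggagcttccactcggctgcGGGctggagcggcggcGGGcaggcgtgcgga

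Each condition had 1 deposited peak list. Values below thus carry no replicate error, and HD was not tested against Ctrl. The HD list held 2269 peaks and the Ctrl list 3507. All HD peak names carry the number of replicate 1, and no source used here says whether replicate 2 entered that list. ChIP fragment numbers at the summits were recovered from the peak caller's fold enrichment and p-value, and was set against the mean coverage of the genome by ChIP fragments, which was 5.51 fragments in HD and 3.74 fragments in Ctrl. The HD track was thus 1.47 times as deep at an average position, and fragment numbers are compared below only as multiples of these means. Intervals on fragment numbers are exact 95% Poisson intervals, and intervals on their ratios are exact conditional binomial intervals. Both describe counting error alone and take each fragment as a separate molecule, which reads copied by PCR are not. At sites where the caller used the genome-wide expectation, the weakest called peak had 20 fragments in HD, 3.63 times the mean coverage, and 15 fragments in Ctrl, 4.01 times the mean. A missing peak is a missing call, since no fragment numbers were available at uncalled sites.

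Peaks lay at 3 of the 8 genes in the HD list and at 4 of them in the Ctrl list. BMAL1 and NR1D1 were called in both lists, CRY2 in HD only, CIPC and CLOCK in Ctrl only, and CRY1, PER1 and PER2 in neither. Under the same rule, 9.47% of coding genes had a peak in the HD list and 13.2% in the Ctrl list, while 6.19% had peaks in both, 3.28% in HD only and 6.97% in Ctrl only. The genes were listed because some of them were known to have peaks, so nothing is read from the counts of the 8 against these shares. The 8 genes held 9 peaks in all, 4 in HD and 5 in Ctrl.

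**Figure D1:**
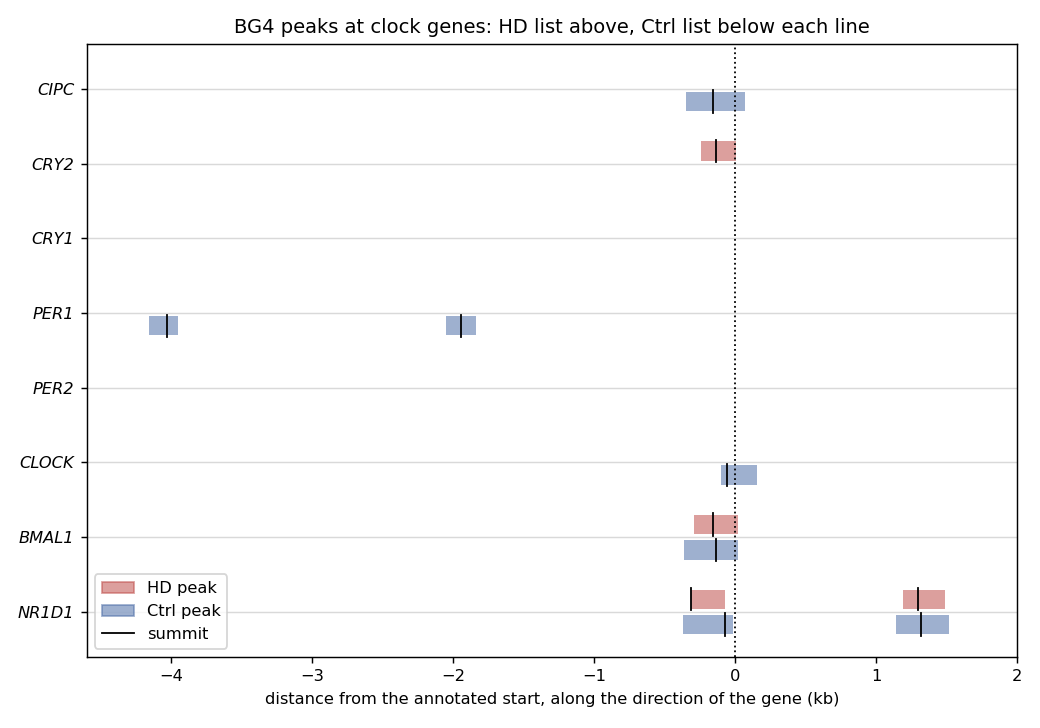
Peaks at the 8 clock genes, plotted by distance in kb from the annotated start nearest to them along the direction of the gene, with HD peaks above and Ctrl peaks below each line and black ticks at the summits. Peaks of CIPC, CRY2, CLOCK and BMAL1 lie across the start, NR1D1 has a further peak inside the gene in both lists, and the Ctrl peaks of PER1 lie outside the 1 kb window.

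Among the repressors, CIPC had the strongest peak of the 8 genes in the Ctrl list and none in the HD list. The CIPC gene (gene ID 85457) spans 77098258 to 77117287 on chromosome 14, and its Ctrl peak ran from 77097909 to 77098327, with the summit at position -156 from the start of the gene, taken as 0. The summit held 41 Ctrl fragments (29.4 to 55.6), which is 11.0 times the mean coverage (7.87 to 14.9) and 8.37 times the input expectation at the site (6.01 to 11.4). By −log10 q (17.2) the peak ranked 222 of 3507. The nearest HD peak by summit distance lay 519 kb away, at SPTLC2. Of the 347 Ctrl peaks in the same decile of the list by −log10 q, 251 (72.3%) overlapped an HD peak. The input expectation at the site was 1.31 times the genome mean in Ctrl, and neither the input nor the ChIP fragments at this position in HD are known. LOC124903350, a long noncoding RNA gene, also lies within 1 kb of this peak.

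CRY2 showed the opposite calls. Its gene (gene ID 1408) spans 45847118 to 45883244 on chromosome 11 and has a pair of annotated starts in the promoter table. The HD peak, from 45847232 to 45847483, lay at the inner start, with the summit at -136 from it. The summit held 41 HD fragments (29.4 to 55.6), which is 7.44 times the mean coverage (5.34 to 10.1) and 7.39 times the input expectation (5.31 to 10.0). The peak ranked 293 of 2269 in the HD list by −log10 q (11.8), and the nearest Ctrl peak lay 535 kb away at MDK. In the same decile of the HD list, 179 of 227 peaks (78.9%) overlapped a Ctrl peak. The outer CRY2 start, with a GC content of 46.3% in its window, touched no peak.

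The other repressor genes carried no peak within the rule. CRY1 (chromosome 12, 106991364 to 107093549), the paralogue of CRY2, lay 35.6 kb from the nearest HD peak and 2730 kb from the nearest Ctrl peak. PER2 (chromosome 2, 238244044 to 238300065) lay 183 kb from the nearest peak of each list, at SCLY. PER1 (chromosome 17, 8140472 to 8152404) was just outside the rule in Ctrl. One Ctrl peak of 24 fragments (15.4 to 35.7), 6.42 times the mean coverage, ended 1.84 kb beyond the PER1 start, and another of 19 fragments (11.4 to 29.7), 5.08 times the mean, lay farther upstream, with summits at -1947 and -4029. No annotated gene lay within 1 kb of either peak, and the nearest HD peak lay 525 kb from PER1.

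The activator genes differed in their calls. BMAL1 (gene ID 406, chromosome 11, 13276652 to 13387266) was called in both lists. The HD peak, from 13277500 to 13277810, held 41 fragments (29.4 to 55.6), or 7.44 times the mean coverage (5.34 to 10.1), and the Ctrl peak, from 13277429 to 13277806, held 32 fragments (21.9 to 45.2), or 8.56 times the mean (5.86 to 12.1). The HD to Ctrl ratio of these multiples was 0.869 (0.534 to 1.43), so a difference was not detectable at this depth. The peaks shared 307 bases, 98.7% of the shorter one, and the summits at -158 in HD and -138 in Ctrl from the inner annotated start were 20 bases apart. By −log10 q the site ranked 411 of 2269 in HD (10.1) and 348 of 3507 in Ctrl (13.3).

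CLOCK (gene ID 9575, chromosome 4, 55427903 to 55546909) was called in Ctrl only. The peak was below the median of the Ctrl list by multiple of the mean coverage (7.49) and slightly above it by −log10 q (5.93). Its Ctrl peak, from 55546758 to 55547010, held 24 fragments (15.4 to 35.7), or 6.42 times the mean coverage (4.11 to 9.55), with the summit at -60 from the upper, outer start. It ranked 1705 of 3507 by −log10 q (6.17), and 143 of the 358 Ctrl peaks in its decile of the list (39.9%) overlapped an HD peak. The nearest HD peak lay 889 kb away, at PPAT and PAICS. The CLOCK peak also lay within 1 kb of LOC124900704, a long noncoding RNA gene.

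NR1D1 (gene ID 9572, chromosome 17, 40092793 to 40100589) was the gene with most peaks of the 8, with 2 sites in each list. The stronger site lay inside the gene, from 40099104 to 40099400 in HD and from 40099073 to 40099446 in Ctrl, with summits at 1295 and 1316 bases after the start. Exon and intron positions were not used here. It held 42 HD fragments (30.3 to 56.8), or 7.62 times the mean coverage (5.49 to 10.3), and 37 Ctrl fragments (26.1 to 51.0), or 9.90 times the mean (6.97 to 13.6). Their ratio was 0.770 (0.483 to 1.23). The site ranked 696 of 2269 in HD and 377 of 3507 in Ctrl by −log10 q (7.95 and 12.9).

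The weaker NR1D1 site lay at the start of the gene, from 40100662 to 40100907 in HD and from 40100604 to 40100959 in Ctrl. It held 38 HD fragments (26.9 to 52.2), or 6.89 times the mean coverage (4.88 to 9.46), and 24 Ctrl fragments (15.4 to 35.7), or 6.42 times the mean (4.11 to 9.55), a ratio of 1.07 (0.628 to 1.87). The expected fragments from input were 2.54 times the genome mean there in HD and 1.45 times the mean in Ctrl. Against that expectation the HD site was enriched 2.72 times (1.92 to 3.73) and the Ctrl site 4.42 times (2.83 to 6.57). The intervals take the input as known. The rank by −log10 q, which does count the input, was low, 2147 of 2269 in HD and 2373 of 3507 in Ctrl. At the stronger NR1D1 site, the input expectation was 1.54 times the mean in HD and 1.49 times in Ctrl. In Ctrl the 2 sites thus differed in fragments (24 and 37) and little in input. The summits lay 239 bases apart, at -313 in HD, near the upstream edge of that peak, and at -74 in Ctrl, whereas the median distance over all 1304 overlapping pairs of peaks was 41.5 bases (quartiles 16 and 82).

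**Figure D2:**
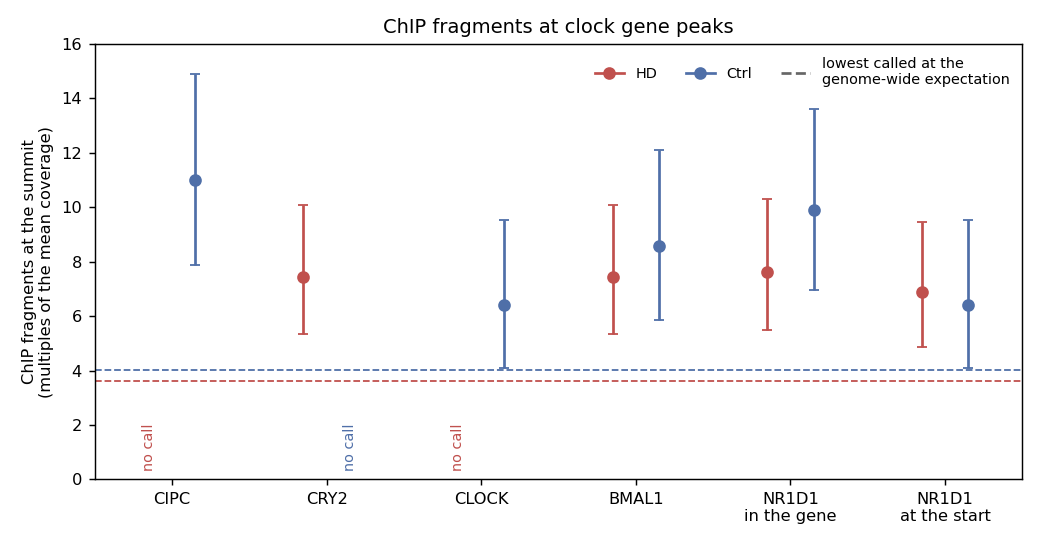
ChIP fragments at the summit of each clock gene peak, as multiples of the mean coverage, in HD (left) and Ctrl (right) for each site, with exact 95% Poisson intervals. Dashed lines mark the weakest peak called at the genome-wide expectation, 3.63 in HD and 4.01 in Ctrl, and the intervals of HD and Ctrl overlap at each of the 3 sites called in both lists.

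**Figure D3:**
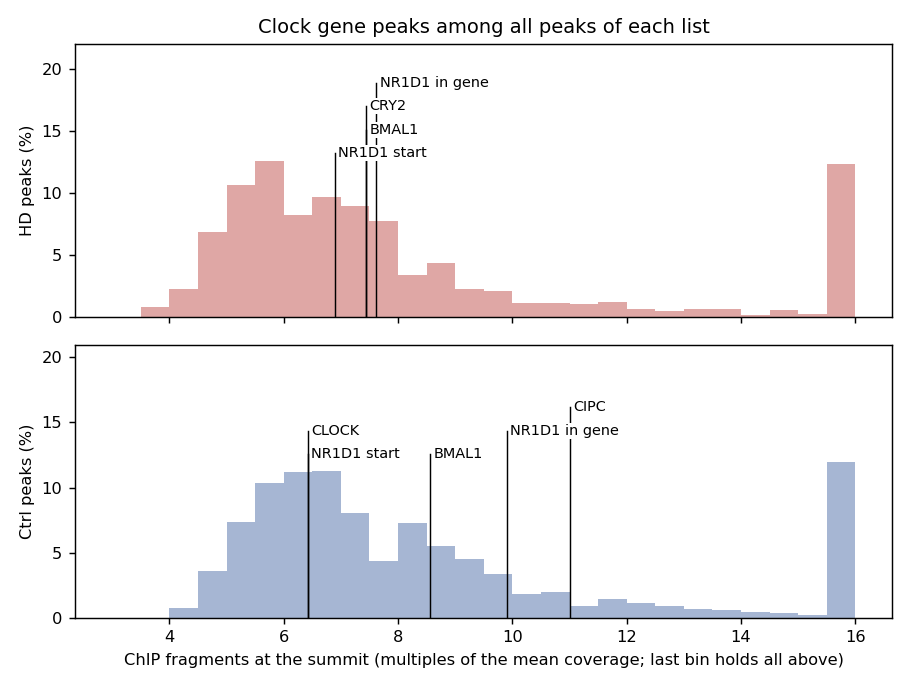
Share of all HD peaks (top) and all Ctrl peaks (bottom) by ChIP fragments at the summit, in multiples of the mean coverage, with lines at the clock gene peaks. The median was 6.89 in HD and 7.49 in Ctrl, and CIPC, at 11.0, is the highest clock gene peak in either list.

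By multiple of the mean coverage, the HD peaks of the clock genes lay close to the median of their list. The Ctrl peaks lay on either side of theirs. By −log10 q the HD peaks were spread more widely, from rank 293 at CRY2 to rank 2147 of 2269 at the NR1D1 start. The median over all peaks was 6.89 times the mean coverage in HD and 7.49 times in Ctrl, and the 4 HD peaks of the clock genes ran from 6.89 to 7.62. The 5 Ctrl peaks ran from 6.42, at CLOCK and the NR1D1 start, to 11.0, at CIPC. In Ctrl, the neighbours in this order, CIPC, NR1D1 inside the gene, BMAL1 and the other sites, had overlapping intervals, and so did all 4 sites in HD.

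The promoter windows were searched on both strands for a G4 motif, defined as 4 runs of at least 3 G with loops of 1 to 7 bases. This motif was present in 8754 of 34961 promoter windows of the same length (25%), which leave out chromosome 8, whose windows were not used here. It was found in windows of 4 of the 8 genes, namely CRY2, BMAL1, CLOCK and PER1. CRY2 held the motif at -115 to -82 and at -56 to -38, both on the strand of the gene and inside the HD peak, the nearer 21 bases from the summit. BMAL1 held it at -88 to -68 and at -54 to -25, also on the strand of the gene and inside the peaks of both lists, 70 bases from the HD summit and 50 from the Ctrl summit. At CLOCK the Ctrl summit at -60 fell inside the motif, which ran from -67 to -42 on the strand of the gene. The inner CLOCK start held another motif, on the opposite strand, and no peak.

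**Figure D4:**
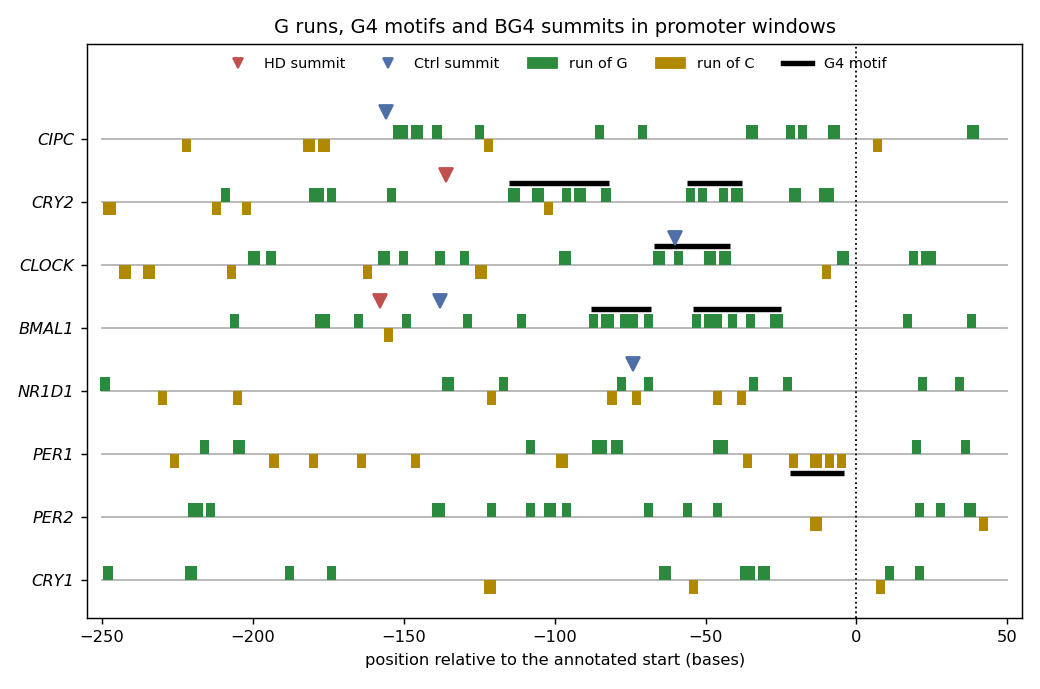
Runs of at least 3 G (above each line) and of at least 3 C (below) in promoter windows, by position in bases from the annotated start, with black bars for G4 motifs (on the strand whose runs they lie beside) and triangles for HD and Ctrl summits. The CLOCK summit lies in a motif, the CRY2 and BMAL1 summits lie upstream of theirs, and CIPC and NR1D1 have summits and no motif with loops of at most 7 bases.

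Motif and peak did not always go together. The CIPC window, with the highest Ctrl peak of the 8 genes, held no such motif, although its 11 runs of G all lay inside the peak and the nearest was 3 bases from the summit. With loops of up to 12 bases a match was found in CIPC, as in 37.9% of all windows. NR1D1 held no match with either loop length. Its Ctrl summit at -74 fell in a run of C and was 3 bases from the nearest run of G on the strand of the gene. PER1 held a motif on the strand opposite to the gene at -22 to -4 and had no peak there in either list. PER2, with a GC content of 80.3%, above that of 97.7% of windows, had neither a motif with short loops nor a peak. Among the windows that held summits, GC content was 70.0% in CIPC, 70.3% in CRY2, 73.3% in CLOCK, 70.0% in BMAL1 and 63.0% in NR1D1, against a median of 58.7% over all windows. The windows of PER1 (69.0%) and CRY1 (67.3%), which touched no peak, were also above this median.

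Over all promoter windows, the G4 motif was present in 202 of 598 windows that touched an HD peak only (33.8%), 463 of 1249 that touched a Ctrl peak only (37.1%), 441 of 1075 that touched peaks of both lists (41.0%) and 7648 of 32039 without a peak (23.9%). The windows are not independent, since neighbouring starts overlap, and GC content moved with these classes, with medians of 67.3%, 67.7%, 69.3% and 57.3% in the same order. Its part in the motif shares was not tested. A promoter position was usual for peaks of either list, since the summit was within 250 bases of an annotated start for 1072 of 2075 HD peaks (51.7%) and 1504 of 3205 Ctrl peaks (46.9%), chromosome 8 left out.

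Sequences recognised by clock factors were searched in the same windows. The E-box CACGTG, to which CLOCK and BMAL1 bind, was found in the windows of CIPC, at -68 to -63 and so inside the Ctrl peak, and PER1, at -173 to -168, and in 7.27% of all windows. The letters AGGTCA, the core of the site recognised by REV-ERB and ROR receptors, were found in BMAL1, CRY2 and PER1, and in 13.8% of all windows. In BMAL1 they lay at 31 to 36, just downstream of the peaks of both lists. In CRY2 they lay at -64 to -59 from the inner start, inside the HD peak, and also in the outer window, which touched no peak. The GC box GGGCGG, which overlaps the runs counted in the G4 motif, was found in at least 1 window of each of the 8 genes and in 45% of all windows. The cyclic AMP response element TGACGTCA (1.85% of windows) and the D-box letters TTATGTAA (0.890% of windows), to which DBP and TEF bind, were found in none of the 11 member windows. A match is a description of the letters only.

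Other genes of the clock were taken from a list of 38, of which 37 are protein-coding. Peaks lay at 10 of the 38 in HD (26.3%, against 9.47% of coding genes) and at 13 in Ctrl (34.2%, against 13.2%). Of these, 9 had peaks in both lists, CUL4A in HD only, and BTRC, DDB1, NAMPT and EP300 in Ctrl only, while 24 had none. The list was chosen with earlier results of these data known and was not matched to other genes on expression, GC content or length. No test was made of it, and nothing is read from its counts against the shares of coding genes.

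Among repressor genes of the wider list, PER3, NR1D2 and BHLHE40 were called in both lists. PER3, the third PER gene, held 34 HD fragments, 6.17 times the mean coverage (4.27 to 8.62), and 32 Ctrl fragments, 8.56 times the mean (5.86 to 12.1), at its start. NR1D2, which encodes REV-ERB beta, held 35 HD fragments, 6.35 times the mean (4.42 to 8.83), and 24 Ctrl fragments, 6.42 times the mean (4.11 to 9.55), in a peak that also lies within 1 kb of NKIRAS1. BHLHE40, a repressor that competes for E-boxes, had the highest multiple of the mean of these sites in Ctrl, 9.90 (6.97 to 13.6), with 37 fragments. In HD it held 50 fragments, 9.07 times the mean (6.73 to 12). Its input expectation was 2.28 times the mean in HD and 1.43 times in Ctrl. Over that expectation BHLHE40 stood at 3.97 (2.95 to 5.23) in HD and 6.92 (4.87 to 9.53) in Ctrl. The same values were 6.17 and 7.41 for PER3, and 6.35 and 6.42 for NR1D2.

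Output genes and modifiers were called as well. DBP, an activator at D-boxes, held 44 HD fragments, 7.98 times the mean coverage (5.80 to 10.7), and 23 Ctrl fragments, 6.15 times the mean (3.90 to 9.23), at its start, within 1 kb of CA11, and a further Ctrl peak of 25 fragments inside the gene. Its relative TEF had 2 sites called in both lists. TIPIN, the partner of TIMELESS, had the highest HD value of the list, with 58 fragments, 10.5 times the mean (7.99 to 13.6), against 29 fragments in Ctrl, 7.76 times the mean (5.20 to 11.1), at a start within 1 kb of MAP2K1. The input expectation at TIPIN was 1.43 times the mean in HD and 2.31 times in Ctrl. Over that expectation TIPIN stood at 7.37 (5.6 to 9.53) in HD and 3.36 (2.25 to 4.82) in Ctrl. These intervals, which take the input as known, did not overlap. By −log10 q the site ranked 128 of 2269 in HD and 2876 of 3507 in Ctrl. The kinase genes GSK3B and WEE1 and the coactivator gene THRAP3 were also called in both lists, with 39 to 41 HD fragments and 29 to 34 Ctrl fragments.

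Genes of the wider list called in 1 condition had peaks below the median multiple of the mean coverage, 6.89 in HD and 7.49 in Ctrl. By −log10 q, BTRC (7.41) and EP300 (6.25) were above the Ctrl median of 5.93. NAMPT (5.15) and DDB1 (3.92) were below it, and CUL4A (4.65) was below the HD median of 5.96. CUL4A, a ubiquitin ligase scaffold, held 28 HD fragments, 5.08 times the mean coverage (3.38 to 7.34). In Ctrl, BTRC, which targets PER proteins for degradation, held 26 fragments (6.96 times the mean), EP300, an acetyltransferase that works with CLOCK and BMAL1, held 24 (6.42 times), NAMPT, an enzyme of NAD synthesis under clock control, held 21 (5.62 times), and DDB1, an adaptor of CUL4A, held 20 (5.35 times). The peaks of CUL4A and DDB1 also lay within 1 kb of PCID2 and TKFC, so they cannot be given to the clock gene alone.

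Where a clock gene site was called in both lists, the counting intervals on multiples of the mean coverage did not separate HD from Ctrl. The HD to Ctrl ratio ran from 0.770 to 1.07 over the 3 sites of BMAL1 and NR1D1 and from 0.721, at PER3, to 1.36, at TIPIN, over the 10 sites of the wider list. The interval held 1 at all 3 and all 10 sites. The median ratio was 0.869 and 0.899 in these sets, and 0.902 (quartiles 0.783 and 1.02) over all 1304 overlapping pairs. These are sites that passed the threshold in each list, which keeps out large differences. These ratios leave out the local input. Over the input expectation, the intervals of TIPIN did not overlap, at 7.37 (5.6 to 9.53) in HD and 3.36 (2.25 to 4.82) in Ctrl. At all other shared sites they overlapped. That value was also higher in HD at DBP and 1 of the 2 TEF sites, and lower in HD at the rest.

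**Figure D5:**
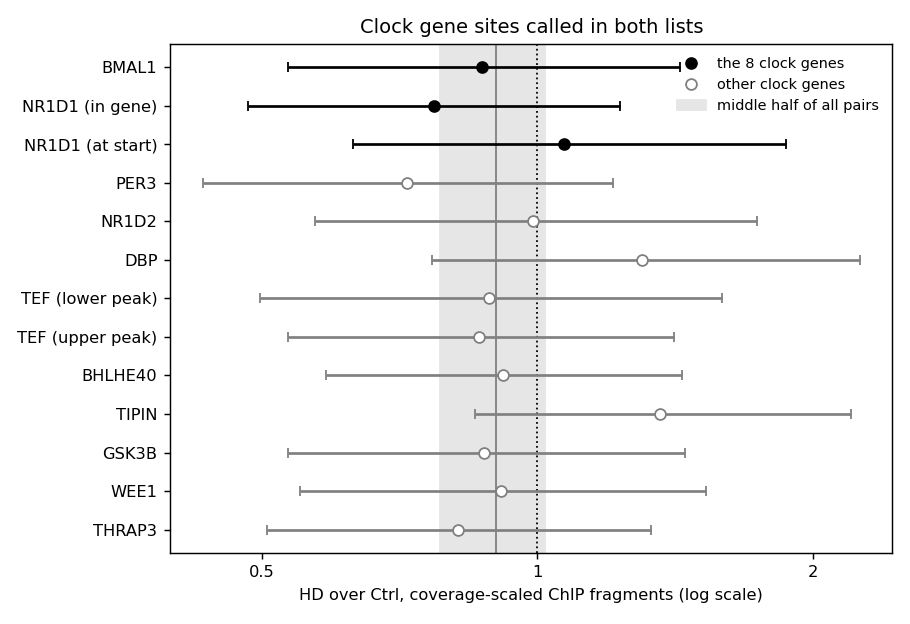
HD to Ctrl ratio of coverage-scaled ChIP fragments on a log axis at clock gene sites called in both lists, with exact 95% conditional binomial intervals, for the 8 clock genes (filled) and the wider list (open). The grey line and band give the median, 0.902, and the middle quartiles, 0.783 to 1.02, of all overlapping pairs, and every interval plotted includes 1.

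The genes most like each called clock gene were taken as those with the same calls, a gene-end peak, and the closest −log10 q, a likeness over the 2 lists only. For CIPC these were IP6K2, IREB2 and FAM98A, with 45, 37 and 37 Ctrl fragments. For CLOCK they were CAMK2N2, SIX4 and SGPL1, with 24, 34 and 25 Ctrl fragments. For CRY2 they were BCLAF1, ADIRF and HIF1A, with 41, 50 and 69 HD fragments. For BMAL1 they were AGFG2, CEP131 and SDR42E2, with 41, 43 and 42 HD and 35, 35 and 33 Ctrl fragments. For the stronger NR1D1 site they were FAM86B2, which has near-identical copies and is uncertain, CRLF3 and PTPN23, with 42, 40 and 45 HD and 37, 32 and 44 Ctrl fragments. That NR1D1 site lay inside the gene, more than 1 kb from either end, whereas the peaks set beside it lay at gene ends. For BMAL1 and NR1D1, the differences in −log10 q were summed over both lists.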

How the data were processed

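BG4 ChIP-seq of U2OS cells was analysed from 1 peak list for each condition, assigned by the labels to both ChIP libraries. Per the submitters' processing notes, the build was hg38, with MACS2 2.2.7.1 and Bowtie2 2.5.0. No source used here states settings, duplicate removal or pooling. The authors deposited for each peak a fold enrichment (a ratio over local background), −log10 p and −log10 q, a score and a summit. The score is 10 times −log10 q cut to a whole number and was not used. The lists end at a q-value of 0.05.

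The clock genes and lists were chosen with earlier results of these data known. Fragments were recovered on the relations that fold is (pileup + 1) / (expectation + 1) and p the Poisson tail of a pileup that is a whole number of fragments times a scale (0.715 in HD, 0.927 in Ctrl), a step tested on simulated data. A whole number matched −log10 p within 0.01 for 2262 of 2269 HD and 3488 of 3507 Ctrl peaks, and for all 9 clock gene peaks with no second match. The genome-wide expectation (3.94 in HD, 3.46 in Ctrl) divided by the scale gave the mean coverage. Peaks overlapped when they shared 1 base. Named genes were the 8, wider-list genes with a peak, neighbours at a peak, and the 3 closest genes in −log10 q. All 8 genes matched a promoter window, 11 windows in all. Python 3.11.15, SciPy 1.17.1 and pandas 2.3.3 were used.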

Additional observations from a re-analysis of the deposited data

How the results depend on the processing

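The counts of the 8 genes and of the wider list with a peak stayed within 1.5 times under windows of 500 bp and 5 kb, gene ends only, summits in place of any overlap, −log10 q of at least 3, and 2172 peaks from each list. The 8 gave 3 genes in HD under all 6 of these and 4 in Ctrl, except that the window of 5 kb added PER1 in Ctrl (5 genes). Taking 2172 peaks from each list left the HD count of coding genes unchanged at 1892, so that setting was no check of the HD counts. BMAL1 and NR1D1 also counted as shared when peaks had to share at least 50% of the shorter. The deposited fold, used in place of fragments over expectation, lay inside the counting interval at all 9 clock gene peaks. Fragments and expectation were recovered from that same fold, so this is not an independent check. No clock gene peak had another matching fragment number. Loops of up to 12 bases raised the share of promoter windows with a G4 motif to 37.9% from 25%, and the clock genes with a motif to 6 from 4. No paired analysis was possible because each condition has 1 peak list, and for the same reason no replicate could be left out. The depth limits what a missing call means: 15 Ctrl or 20 HD fragments were the fewest called.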
